A study of Mus musculus with 16 samples.

Results

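The cytosolic ribosomal protein genes were examined in 4 sorted mouse cell populations. They were taken from the scanner's own probe annotation as the symbols of the Rpl and Rps series, including Rpsa, Rplp0, Rplp1 and Rplp2 and the numbered paralogs, without Rps6 kinases and without pseudogenes marked as such. Of 84 matching symbols on the array, 82 had a probe that the scanner software marked as well above background on 4 or more of the 16 arrays, and the brightest such probe stood for each gene. They comprised 48 large-subunit and 34 small-subunit symbols among 21897 genes tested. For 81 of the 82 the probe was well above background on all 16 arrays. Rpl10l lay just inside the limit with 7 arrays, and Rpl3l and Rpl39l lay just outside it with 3 arrays and 1 array. RefSeq lists 80 of the 82 as protein-coding and does not pair the symbol Rps12l2 with a gene. It names the accession behind the array's Rps4y2 probe Rps4l and types that gene as a transcribed pseudogene, at chr6:148354656-148355596 in GRCm38.p6.

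All cells came from untreated C57BL/6 mice, and each population was hybridised to 4 single-colour arrays. CCR2+ Mac are heart macrophages sorted as CD45+, MerTK+, CD64+, Ly6c-negative, CCR2-high and MHCII-high. MHC-IIHi Mac share the first 4 of those features and the high MHCII but lack CCR2 and have low CD11c. MHC-IIlo Mac lack both CCR2 and CD11c and have low MHCII. Ly6cHi Mono are Ly6c-high blood monocytes. Cells went straight into Trizol, and the Cy5 labelling started from 1 ng of RNA each, so an array reports how RNA is divided among genes and not how much RNA a cell holds, and fewer cells of a type cannot be told apart from less RNA per cell. Nothing in the labels says whether replicates came from separate animals, so p-values measure only the spread between these samples. Age and sex are not given in the sources used here.

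The sort was visible in the gate genes. Mertk, a phagocytic receptor, was at least 48.2-fold higher in the macrophages, because none of the 4 monocyte arrays measured it well above background. Ly6c1, the monocyte gate gene, averaged 2.65, 1.32 and 1.44 in CCR2+ Mac, MHC-IIHi Mac and MHC-IIlo Mac, against 5.77 in monocytes (log2 relative to each array's 75th percentile, the scale used for all levels here). Genes listed as markers of other cells differed between the groups. The summed scaled signal of 6 cardiomyocyte genes lay between 16.4 and 30.1 on the macrophage arrays and between 1.91 and 2.49 on the monocyte arrays, where 3 of the 6 were not well above background on any array. Sums of 4 fibroblast genes were 3.78 to 10.4 in macrophages and 1.12 to 1.36 in monocytes. Sums of 2 red cell genes were 0.236 to 1.66 in macrophages and 10.4 to 46.2 in monocytes. Sums of 4 platelet genes were 12.8 to 56.3 in macrophages and 1.50 to 4.41 in monocytes. Of these 4 platelet genes, 2 were well above background on all 4 arrays in each macrophage group, and 3 in monocytes. The platelet sum therefore does not speak for every gene in its list. Whether these transcripts came from other cells, and their part in the results below, was not tested.

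Each cytosolic ribosome joins a small subunit, which reads the message, to a large subunit, which forms the peptide bond. Each ribosomal protein is needed in about equal number, and the messages of these genes carry a run of pyrimidines at their 5′ end, the TOP motif, through which mTOR and LARP1 set how strongly they are translated. The same genes are among the most abundant messages of most cells, and their level follows growth and cell state. Several have paralogs with tissue-restricted expression.

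The start regions of the genes with the largest falls are shown for their pyrimidine runs. The 6 genes with the largest falls in macrophages against monocytes that have an entry in RefSeq's promoter table are printed below from 40 bases before to 20 bases after the annotated start (GRCm38.p6, on the gene's strand). Capitals mark the longest run of C and T within 20 bases of the start.
Rps27, chr3:90213629-90213688, minus strand: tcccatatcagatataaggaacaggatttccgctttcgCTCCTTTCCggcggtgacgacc
Rpl18, chr7:45718031-45718090, plus strand: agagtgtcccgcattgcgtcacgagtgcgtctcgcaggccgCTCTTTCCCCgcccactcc
Rplp0, chr5:115559427-115559486, plus strand: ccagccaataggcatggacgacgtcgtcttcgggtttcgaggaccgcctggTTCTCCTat
Rps9, chr7:3704001-3704060, plus strand: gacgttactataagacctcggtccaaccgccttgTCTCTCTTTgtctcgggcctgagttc
Rps15a, chr7:118116128-118116187, minus strand: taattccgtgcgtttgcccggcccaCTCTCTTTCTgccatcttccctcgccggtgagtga
Rpl27, chr11:101442205-101442264, plus strand: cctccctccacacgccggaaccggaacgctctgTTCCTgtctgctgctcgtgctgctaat

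The runs differed in length, from 5 bases in Rpl27 to 10 in Rpl18 and Rps15a. A run of 10 or more pyrimidines within 20 bases of an annotated start was found in 23 of the 60 members with an entry, or 38.3%, against 8.61% of 27025 genes in the table. In the 300-base windows the letters CCGGAAG, the core bound by ETS factors, occurred on either strand in 24 of the 60 members (40%) against 9.93% of all genes. The letters AAGATGG, a YY1 core, occurred in 10 of the 60 (16.7%) against 7.28%. Annotated starts can miss the true start by some bases, and a match is a description of letters only.

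Relative to each array's 75th percentile, the ribosomal protein genes were lower in all 3 macrophage groups than in monocytes. The median of the 82 genes on each array was 4.66, 4.36, 4.51 and 4.37 in CCR2+ Mac, 4.75, 4.41, 4.87 and 4.36 in MHC-IIHi Mac, and 4.66, 4.27, 4.65 and 4.44 in MHC-IIlo Mac, against 5.55, 5.29, 5.47 and 5.17 in Ly6cHi Mono. All 12 macrophage arrays lay below all 4 monocyte arrays, and the 3 macrophage groups overlapped. When the 3 macrophage groups were averaged and set against monocytes, the median difference of the members was -0.83 on the log2 scale, against -0.07 over all genes tested, and 10.3% of all genes lay below the members' median.

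**Figure D1:**
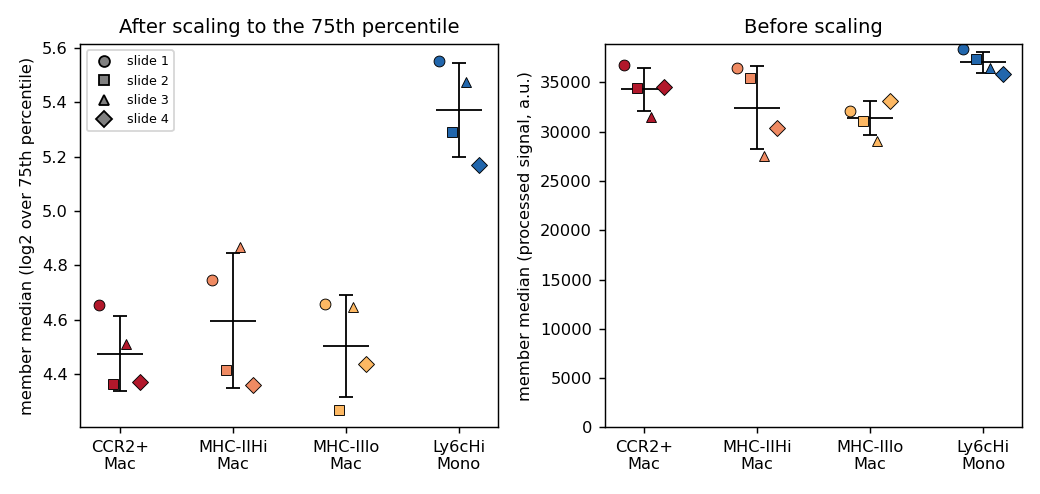
Median of the 82 ribosomal protein genes on each array, after scaling to each array's 75th percentile (left, log2) and before scaling (right, processed signal in arbitrary units, a.u.), with the mean ± SD of the 4 arrays per group as a bar. After scaling the 12 macrophage arrays lie between 4.27 and 4.87 and the 4 monocyte arrays between 5.17 and 5.55. Before scaling they lie between 27498 and 36797 and between 35844 and 38350.

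In the limma fit 75 of the 82 members were lower in macrophages at an adjusted p under 0.05 and 1 was higher, where 15.1% of all genes tested were lower and 12.4% higher. The groups did not overlap for 64 members, all with every macrophage array lower, against 7.9% of all genes. Within each of the 4 slides, which each carried 1 array per group, 78 members were lower in macrophages, against 26.4% of all genes. The slide medians were -0.87, -0.90, -0.74 and -0.78. With the slide as a block 78 members were lower, where 21.9% of all genes were.

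The size of the fall depends on how arrays are put on a common scale. The 75th percentile of the processed signal was 941 to 1670 on the macrophage arrays and 819 to 996 on the monocyte arrays, and 58.1% to 69.3% against 52.8% to 60.1% of spots were well above background. Without any scaling the median difference was -0.17 with all genes at 0.59, 62 members were negative, and 16 members passed as lower and 4 as higher. The split of all genes called moved as well, with 3312 lower and 2719 higher as reported, 4740 and 2032 after normexp, 1816 and 4635 after scaling to the 95th percentile, and 780 and 7893 without scaling. Set against the median of all genes the members stood at -0.75 under every single-factor scaling. Such a scaling moves all genes of an array alike and cannot change this value. The value was -0.43 after quantile normalisation and -0.46 after normexp background correction, which can change it. The members were far brighter than the median gene, and no set of genes matched for level was set beside them. No spot was saturated.

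**Figure D2:**
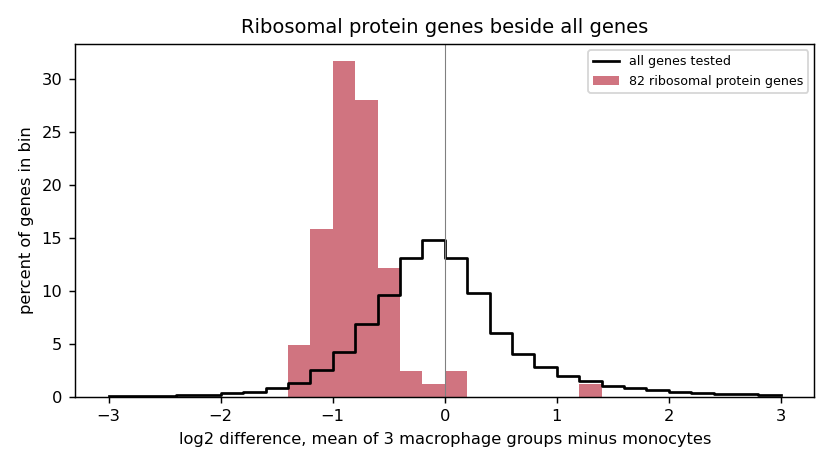
Distribution of the log2 difference, mean of 3 macrophage groups minus monocytes, in bins of 0.2 for the 82 ribosomal protein genes (bars) and for all 21897 genes tested (line), as percent of each set. The bars centre near -0.83 and the line near -0.07, and 1 bar stands alone at the right, Rps4y2 at 1.37.

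Among the large-subunit genes 44 of 48 were lower in macrophages and none was higher, with a median difference of -0.83. Among the small-subunit genes 31 of 34 were lower and 1 was higher, with the same median of -0.83. All 3 genes of the P stalk were lower.

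The 12 members with the largest falls were Rps27, Rps27a, Rpl18, Rplp0, Rps9, Rps15a, Rpl27, Rps18, Rps16, Rps7, Rpl36a and Rpl34, with log2 differences between -1.28 and -1.08. Rps27, a zinc-binding protein of the small subunit, ranged from 4.22 through a median of 4.52 to 5.09 on the 12 macrophage arrays, against 5.91, 5.67, 6.12 and 5.67 in monocytes. Every macrophage array was lower. The difference was -1.28 ± 0.17 (SE, 2.42-fold lower, limma adjusted p = 3.63e-05), and it was between -1.41 and -1.14 within each slide.

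Rps9, a small-subunit protein with a part in decoding accuracy, ran from 4.74 through 4.95 to 5.26 in macrophages, against 6.29, 5.98, 6.32 and 5.97 in monocytes. The groups did not overlap, and the difference was -1.18 ± 0.14 (SE, adjusted p = 1.27e-05). Rpl18 ran from 4.66 through 5.16 to 5.40 in macrophages, against 6.47, 6.30, 6.62 and 6.05 in monocytes. Its difference was -1.22 ± 0.16 (SE, adjusted p = 3.58e-05).

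Rps27a encodes a small-subunit protein that is made as a fusion with ubiquitin. Its brightest probe ran from 3.53 through 4.40 to 4.88 in macrophages, against 5.81, 5.57, 5.77 and 5.41 in monocytes, a difference of -1.24 ± 0.20 (SE, adjusted p = 0.000175). A second bright probe gave -0.91, and one more, well above background on 11 arrays only, gave -0.00. Fau, whose small-subunit protein is made as a fusion with a ubiquitin-like protein, and Rpl36al lie outside the naming rule. Both were lower in macrophages. Fau fell by 0.77 (adjusted p = 0.000182) and Rpl36al by 1.44 on the log2 scale (adjusted p = 0.000124).

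The P stalk recruits translation factors to the large subunit and is built from Rplp0, Rplp1 and Rplp2. Rplp0, its base, ran from 4.09 through 4.43 to 4.78 in macrophages, against 5.86, 5.59, 5.82 and 5.44 in monocytes. Every macrophage array lay below every monocyte array, with a difference of -1.22 ± 0.16 (SE, adjusted p = 3.19e-05). Rplp2, which pairs with Rplp1 on that base, ran from 4.48 through 4.68 to 5.17 in macrophages, against 5.99, 5.75, 5.90 and 5.44 in monocytes, and fell by 0.99 (adjusted p = 0.000323). Rplp1 ran from 4.09 through 4.44 to 4.96 in macrophages, against 5.15, 5.09, 5.21 and 4.72 in monocytes. It fell by 0.59 with overlapping groups (adjusted p = 0.0144). Its call was lost without monocyte replicate 1 (adjusted p = 0.0505) or 3 (adjusted p = 0.0565), and its sign turned without scaling between arrays, to 0.0734.

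Rpsa, a small-subunit protein also known as the laminin receptor, ran from 5.16 through 5.29 to 5.60 in macrophages, against 6.21, 6.17, 6.43 and 5.94 in monocytes. The difference was -0.87 ± 0.13 (SE, adjusted p = 0.000143), with no overlap between the groups.

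**Figure D3:**
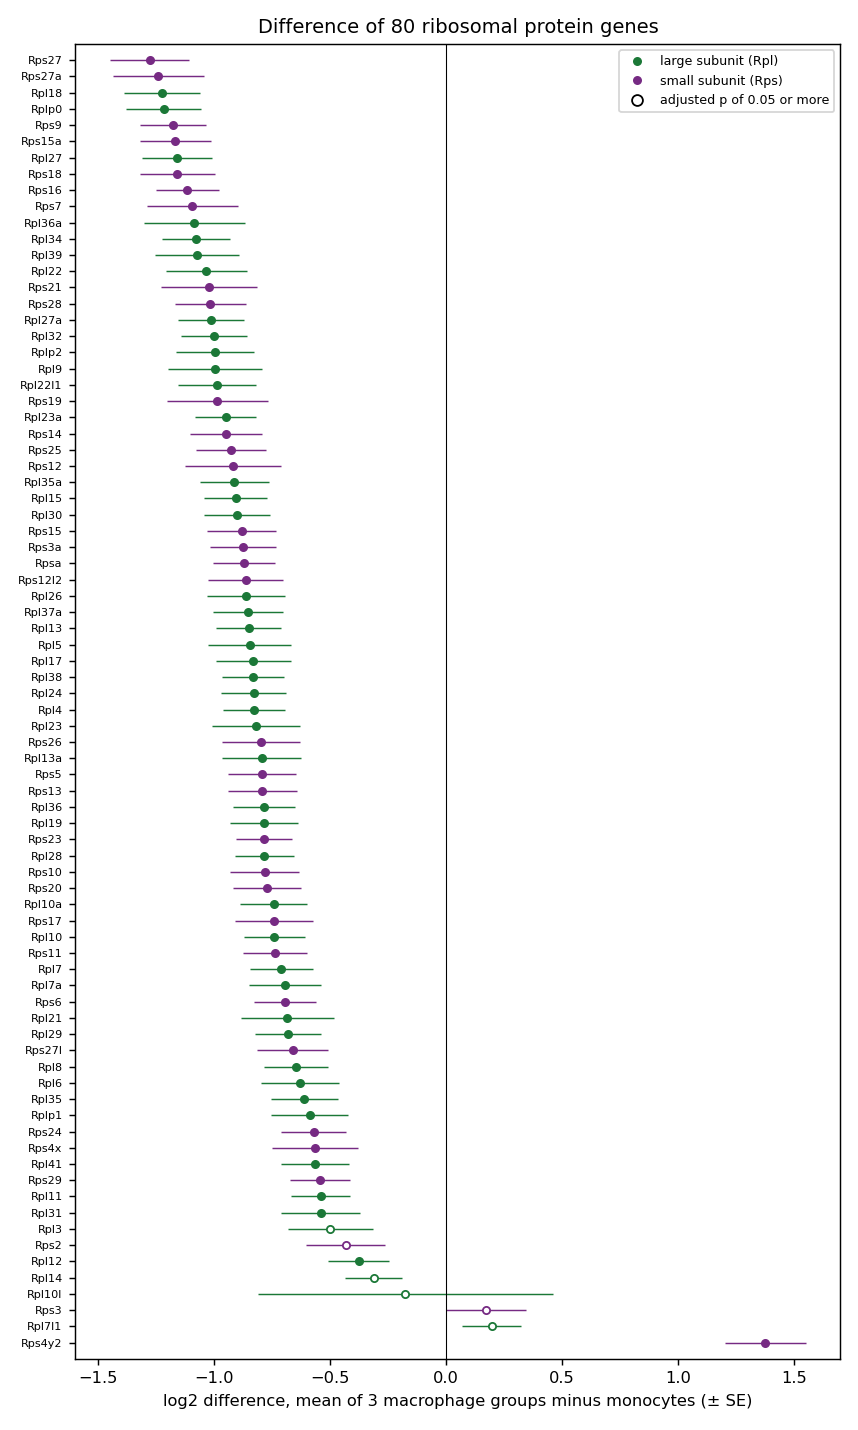
Log2 difference ± SE of 80 of the 82 members between the mean of 3 macrophage groups and monocytes, in order of size, with large-subunit genes in green and small-subunit genes in purple and open points for adjusted p of 0.05 or more. Most points lie between -1.28 and -0.31, and Rps3, Rpl7l1 and Rps4y2 lie to the right of 0.

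Paralogs are given beside their parent genes. Rpl22, an RNA-binding protein of the large subunit, ran from 3.81 through 4.03 to 4.51 in macrophages, against 5.44, 5.02, 5.24 and 4.80 in monocytes, and fell by 1.03 (adjusted p = 0.000304). Its paralog Rpl22l1 ran from 2.19 through 2.56 to 2.84 in macrophages, against 3.65, 3.53, 3.90 and 3.17 in monocytes, and fell by 0.99 (adjusted p = 0.000352). By these brightest probes neither gene had overlapping groups. A dimmer probe of Rpl22 differed by -0.29 with overlapping groups, from -1.18 to 0.13 in macrophages and from -0.61 to 0.01 in monocytes. Rps27l, a p53-induced paralog of Rps27, ran from 2.70 through 3.06 to 3.56 in macrophages, against 3.61, 3.89, 3.92 and 3.49 in monocytes, and fell by 0.66 with overlapping groups (adjusted p = 0.00392). Without scaling its sign turned, to 0.000509. Rpl7l1 differed by 0.20 ± 0.13 (SE, adjusted p = 0.298), with macrophage values from -0.66 through -0.39 to -0.19 and monocyte values of -0.65, -0.77, -0.53 and -0.48. Rpl7 itself fell by 0.71 (adjusted p = 0.000925). Rpl10 fell by 0.74 (adjusted p = 0.000479). Rpl10l, known for its role in the testis, was well above background on 2, 2, 2 and 1 of the 4 arrays in CCR2+ Mac, MHC-IIHi Mac, MHC-IIlo Mac and Ly6cHi Mono, and its difference of -0.17 ± 0.64 (SE, adjusted p = 0.889) carries little precision. Rpl39, at the exit tunnel, fell by 1.07 (adjusted p = 0.000326).

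The sole member past the threshold in the other direction was Rps4y2, the probe that RefSeq assigns to the transcribed pseudogene Rps4l. It was 0.45, 0.29, 0.18 and -0.03 in CCR2+ Mac, 1.47, 1.63, 1.78 and 1.32 in MHC-IIHi Mac, and 1.74, 1.53, 1.77 and 1.25 in MHC-IIlo Mac, against -0.69, -0.03, 0.18 and -0.50 in monocytes. Both CCR2-negative groups lay above every CCR2+ and monocyte array, and CCR2+ Mac overlapped monocytes. Against monocytes it was 1.81 ± 0.21 higher in MHC-IIHi Mac (SE, adjusted p = 1.42e-05) and 1.83 ± 0.21 higher in MHC-IIlo Mac (SE, adjusted p = 1.2e-05). In CCR2+ Mac the difference of 0.48 ± 0.21 did not pass (adjusted p = 0.131), and with the slide as a block it did (adjusted p = 0.0406).

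Rps4x, an X-linked gene typed as protein-coding, fell by 0.56 in macrophages (adjusted p = 0.0329). It did so with overlapping groups, its call was lost without monocyte replicate 1 (adjusted p = 0.119) or 3 (0.131), or without CCR2+ Mac replicate 2 or 4, MHC-IIHi Mac replicate 2 or MHC-IIlo Mac replicate 4 (each 0.0508 to 0.0513), and its sign turned to 0.10 without scaling. The 2 genes were read by separate probes, whose first 30 bases are printed so that they can be compared, and neither has a run of 16 bases in common with a probe named for another gene.
Rps4y2 (chr6): ggggaaggggcgtttacgtttgtttatact
Rps4x (chrX): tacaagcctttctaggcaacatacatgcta

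Rps3, a small-subunit protein at the message entry, gave different answers by probe. Its brightest probe ran from 5.58 through 5.96 to 6.50 in macrophages, against 5.73, 6.10, 5.62 and 5.95 in monocytes, a difference of 0.17 ± 0.17 (SE, adjusted p = 0.533). The other 2 probes of Rps3 differed by -1.31 and -1.17 on the log2 scale, with no overlap between the groups. The probes are shown over 30 bases each, and capitals mark bases within a run of 16 that is shared, on either strand, with a probe named for another gene.
Rps3 (chr7), brightest probe: gtgttaaTGTGTAGCCCTGGCTGgcctctg
Rps3 (chr7), probe with a difference of -1.31: gcgatttAATAAAATAAAGACGAtttaata
Rps3 (chr7), probe with a difference of -1.17: cagggtcttggcagctgcatctagaggctg

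The run in the brightest probe was shared with probes named for 7 other genes, 2 on the same strand and 5 on the opposite strand. The part of that shared run in its flat value was not tested. Shared runs were common among the members, since 51 of the 82 chosen probes had a run of 16 bases in common with a probe under another name, and values of such genes can include RNA of near-identical copies and pseudogenes.

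**Figure D4:**
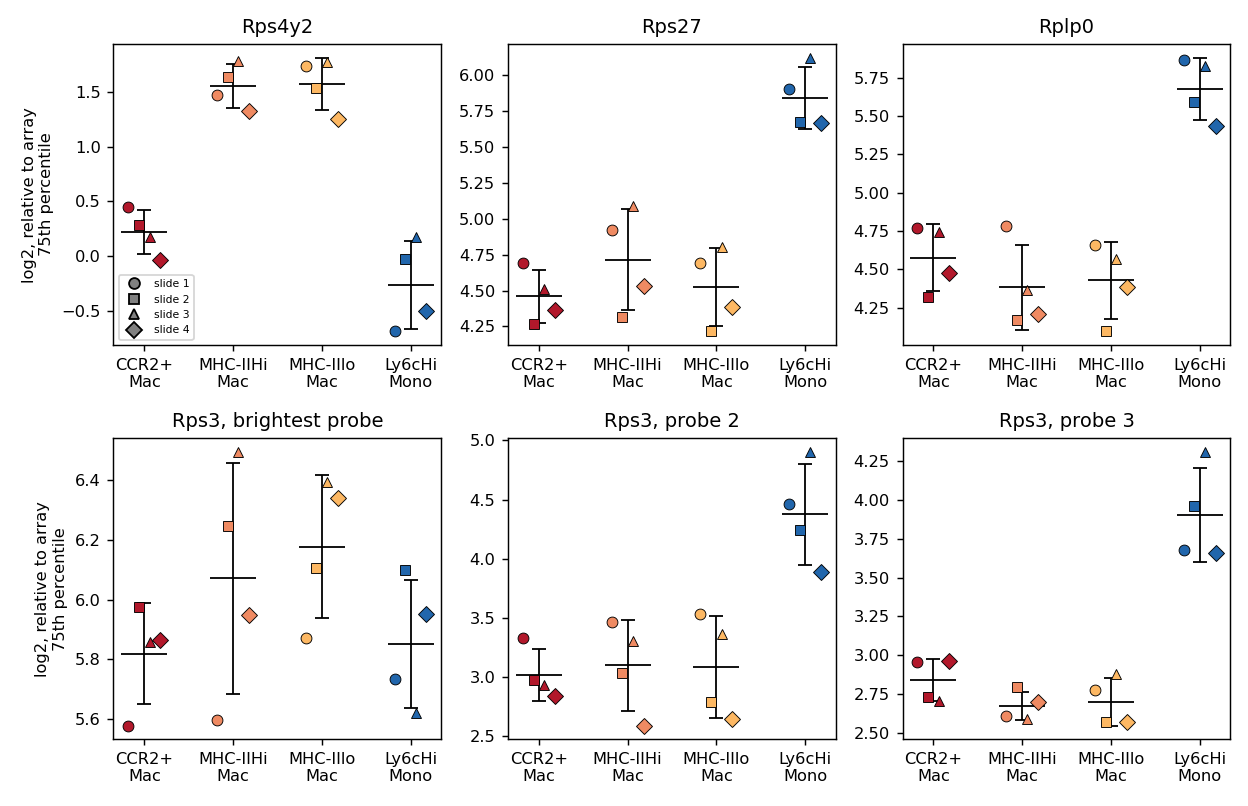
Level of Rps4y2, Rps27 and Rplp0 (upper row) and of the 3 probes of Rps3 (lower row) on each array, as log2 relative to the array's 75th percentile, with the mean ± SD of 4 arrays as a bar and slides as symbols. Rps4y2 is high in the 2 CCR2-negative macrophage groups, Rps27 and Rplp0 are low in all 3 macrophage groups, and the brightest Rps3 probe differs from the other 2.

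Across all probes the direction was the same for most. Of 185 member probes that were kept, 178 were lower in macrophages and 7 were higher. Among all 21897 genes tested, each by its brightest probe, 12108 were lower. Among the 62 genes with several probes, the probes of 57 had the same sign, and the range between probes of a gene had a median of 0.18. Agreement between probes was not counted over all genes. The genes with probes of opposite sign included Rpl6, Rps25 and Rps3, named after their values were seen. In Rpl6 and Rps25 the brightest probe was lower in macrophages, and in Rps3 it was not.

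Besides Rps3, Rpl7l1 and Rpl10l, 3 members did not pass in the comparison of all macrophages with monocytes. Rpl3, at the peptidyl transferase centre, differed by -0.50 (adjusted p = 0.0553), Rps2 by -0.43 (adjusted p = 0.0764) and Rpl14 by -0.31 (adjusted p = 0.075). With the slide as a block all 3 passed, with adjusted p of 0.00358, 0.0119 and 0.0103.

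Each macrophage population was set against the same 4 monocyte arrays, so the 3 comparisons are not independent. In CCR2+ Mac 71 members were lower and none higher, where 11.9% of all genes were lower and 9.9% higher, with a median of -0.86 against -0.10 over all genes. In MHC-IIHi Mac 64 were lower and 1 higher, where 11.4% of all genes were lower and 10.1% higher, with a median of -0.77 against -0.05. In MHC-IIlo Mac 68 were lower and 1 higher, where 11.4% of all genes were lower and 10.1% higher, with a median of -0.83 against -0.06. Every macrophage array lay below every monocyte array for 75 members in CCR2+ Mac, 67 in MHC-IIHi Mac and 72 in MHC-IIlo Mac, against 14.5%, 12.2% and 12.6% of all genes. With the slide as a block 77, 76 and 77 members were lower in the same order of groups, where 19.7%, 18.1% and 18.3% of all genes were. A set of 62 members was called lower in all 3 comparisons and 9 in none. The same overlap was not counted over all genes, so these counts only describe the members.

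The 12 largest falls in CCR2+ Mac were those of Rps27, Rpl27, Rps28, Rpl39, Rps16, Rps15a, Rps14, Rps9, Rps21, Rpl18, Rps18 and Rpl22, between -1.38 and -1.13 on the log2 scale. In MHC-IIHi Mac they were those of Rplp0, Rpl18, Rps9, Rps15a, Rps27a, Rps18, Rps27, Rpl34, Rps16, Rpl27, Rpl27a and Rps7, with Rplp0 at -1.30 and Rpl27a at -1.03. In MHC-IIlo Mac they were those of Rps27a, Rpl18, Rps27, Rplp0, Rpl36a, Rps18, Rps9, Rps7, Rps15a, Rpl5, Rpl39 and Rpl27, between -1.48 and -1.11. In CCR2+ Mac, where no member passed as higher, the highest values were 0.48 for Rps4y2, 0.31 for Rpl7l1 and 0.17 for Rpl10l.

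Some large falls differed in order between the groups. Rps27 fell by 1.38 in CCR2+ Mac, by 1.13 in MHC-IIHi Mac and by 1.32 in MHC-IIlo Mac. Rps27a fell by 1.08, 1.15 and 1.48 in the same order of groups. Rps28 fell by 1.24, 0.85 and 0.95. Rpl5, which with Rpl11 and the 5S RNA restrains MDM2, fell by 0.83 in CCR2+ Mac (adjusted p = 0.0142) and by 1.16 in MHC-IIlo Mac (adjusted p = 0.00118), and differed by -0.55 in MHC-IIHi Mac (adjusted p = 0.0943, and 0.0279 with the slide as a block). None of these 4 genes passed the test between macrophage groups.

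Between macrophage groups 1 ribosomal protein symbol passed the test. CCR2+ Mac against MHC-IIHi Mac gave 1 lower member, Rps4y2, and none higher, where 0.626% of all genes were lower and 0.635% higher, and a median of -0.12 against -0.03 over all genes, with slide medians between -0.29 and 0.01. CCR2+ Mac against MHC-IIlo Mac gave the same 1 gene lower and none higher, where 1.31% were lower and 1.51% higher, and a median of -0.05 against -0.04. MHC-IIHi Mac against MHC-IIlo Mac gave 0 members in limma, where 0.0183% of all genes were lower and 0.0548% higher, with 2 members at an unadjusted p under 0.05 and a median of 0.04 against 0.00. Rps4y2 was lower in CCR2+ Mac by -1.33 ± 0.21 against MHC-IIHi Mac (SE, adjusted p = 0.00442) and by -1.35 ± 0.21 against MHC-IIlo Mac (SE, adjusted p = 0.00182), on all 4 slides in both cases. Over all alternatives the 2 differences ran from -1.41 to -1.12 and from -1.46 to -1.20, and both stayed past the threshold. CCR2+ Mac lay wholly below MHC-IIHi Mac for Rps4y2, Rps29 and Rps23, where 4.61% of all genes did, and wholly below MHC-IIlo Mac for Rps4y2, Rps29 and Rps14, where 4.03% did. No member had MHC-IIHi Mac wholly below MHC-IIlo Mac, where 1.19% of all genes did. With the slide as a block the counts lower were again 1, 1 and 0, where 1.27%, 2.94% and 0.123% of all genes were.

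Of the 82 members 57 were negative in CCR2+ Mac against MHC-IIHi Mac and 49 against MHC-IIlo Mac. Among all 21897 genes tested 11761 and 11996 were negative in the same 2 comparisons. The member counts depend on the scaling, since without scaling between arrays 21 and 20 members were negative. Among the values that did not pass, the lowest against MHC-IIHi Mac were Rps29 at -0.41, Rps28 at -0.39 and Rpl13a at -0.35, and the lowest against MHC-IIlo Mac were Rps29 at -0.45, Rps3 at -0.36 and Rps14 at -0.34, names chosen after their values were seen. On the other side, CCR2+ Mac exceeded MHC-IIHi Mac most in Rpl10l at 0.43, Rps27l at 0.21 and Rplp0 at 0.19. CCR2+ Mac exceeded MHC-IIlo Mac most in Rpl10l at 0.61, Rps27a at 0.40 and Rpl5 at 0.33. Rpl10l was well above background on 2 of 4 arrays in each macrophage group, and both of its values had an SE of 0.78. MHC-IIHi Mac exceeded MHC-IIlo Mac most in Rpl5 at 0.60, Rps12 at 0.45 and Rps27a at 0.33, and lay below it most in Rps27l at -0.45, Rps3 at -0.11 and Rpl8 at -0.08. The spread between arrays of a group was small for the members, with a median residual SD of 0.21 against 0.45 over all genes. The members were also far brighter, so these SDs are not matched for level. On the CCR2+ Mac arrays the members' medians were 4.36 to 4.66, and those of all genes -0.90 to -0.71.

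Other genes of translation are given beside all genes tested in the same comparison, of which 15.1% were lower in macrophages and 12.4% higher, with a median difference of -0.07, and of which 21.9% were lower and 16.4% higher with the slide as a block. Of 13 genes listed under elongation and termination, which include the inhibitory kinase gene Eef2k, 4 (30.8%) were lower in macrophages and 2 (15.4%) higher. The median difference was -0.33, and 7 (53.8%) were lower with the slide as a block. The share higher, made up of Gspt1 and Eef2k, was close to that of all genes. Eef1b2, the exchange factor for eEF1A, fell by 1.13 (adjusted p = 0.000235). Eef2, which moves the ribosome along the message, fell by 0.63 (adjusted p = 0.0127). Eef1a1, which delivers aminoacyl-tRNA, fell by 0.62 (adjusted p = 0.00745). Eif5a, which eases stalled elongation, fell by 0.59 (adjusted p = 0.0211). Gspt1, a termination factor, was 0.51 higher (adjusted p = 0.00415).

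Eef2k, the kinase that inhibits eEF2, was 1.95 higher in macrophages (log2, adjusted p = 2.56e-06). It averaged -0.59 in CCR2+ Mac, 1.14 in MHC-IIHi Mac and 0.91 in MHC-IIlo Mac, against -1.46 in monocytes. It was lower in CCR2+ Mac, by -1.73 against MHC-IIHi Mac (adjusted p = 0.00175) and to a 2.83-fold lower level than in MHC-IIlo Mac (adjusted p = 0.00243).

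Of 40 initiation factors 15 (37.5%) were lower in macrophages, against 15.1% of all genes, and 2 (5%) higher, against 12.4%, with a median of -0.32. The largest falls were of Eif3f at 1.58, Eif3m at 1.17, Eif2b2 at 1.06 and Eif3e at 1.04 on the log2 scale, 3 of them subunits of eIF3, which prepares the small subunit for the message. Eif2s3x, the gamma subunit of eIF2, was 0.90 higher (adjusted p = 0.00303) and Eif1, which guards start codon choice, was 0.45 higher (adjusted p = 0.0318). All 4 largest falls passed at an adjusted p of 0.00176 or lower.

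Of 59 genes of ribosome biogenesis 11 (18.6%) were lower, near the 15.1% of all genes, and 5 (8.47%) higher, against 12.4%. The median of -0.11 was also near that of all genes. In the blocked fit 18 (30.5%) were lower, against 21.9%. Imp3, of the small-subunit processome, fell by 1.29 (adjusted p = 0.000427). Ltv1, a small-subunit assembly factor, fell by 1.12 (adjusted p = 0.000202). Utp14a, of the same processome, fell by 1.03 (adjusted p = 0.00938), and Nop10, of the H/ACA pseudouridylation complex, by 0.91 (adjusted p = 0.00267). Nop58, a box C/D snoRNP protein, was at least 1.65-fold higher (adjusted p = 4.69e-05), since no monocyte array measured it well above background. Nmd3, the export adaptor of the large subunit, Gnl3 and Gar1 were 0.90, 0.87 and 0.54 higher.

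Of 13 genes listed under ribosomal protein chaperones and assembly 2 (15.4%) were lower, the rate of all genes at 15.1%. Another 1 (7.69%) was higher, against 12.4%, and 10 did not pass, with a median of -0.15. The list also held Naca, Btf3 and the snoRNA host gene Snhg1, which gave all of these calls. These counts therefore do not describe dedicated chaperones of ribosomal proteins. Naca and Btf3, the subunits of the nascent polypeptide-associated complex, were both lower (adjusted p = 0.000102 and 0.00215), Btf3 by 1.11 on the log2 scale. In the blocked fit 3 (23.1%) were lower and 3 (23.1%) higher, against 21.9% and 16.4% of all genes. Snhg1, a snoRNA host gene that begins with a pyrimidine run, was 1.00 higher (adjusted p = 0.00367).

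Of 28 genes that control ribosomal protein transcription and translation, 5 (17.9%) were lower, near the 15.1% of all genes, and 1 (3.57%), Myc, was higher, against 12.4%, with a median of -0.06. In the blocked fit 8 (28.6%) were lower and 4 (14.3%) higher, against 21.9% and 16.4%. Myc, a transcription factor that drives ribosome production, averaged 0.37 in CCR2+ Mac, 0.32 in MHC-IIHi Mac and -0.38 in MHC-IIlo Mac, against -3.52 in monocytes, where 1 of 4 arrays measured it well above background (adjusted p = 2.01e-06). Eif4ebp2 and Eif4ebp1, the mTOR-controlled repressors of cap-dependent initiation, fell by 0.76 and 0.52 (adjusted p = 0.00181 and 0.0478). Pdcd4, an inhibitor of eIF4A, fell by 0.50 (adjusted p = 0.0124), and Tbpl1 by 0.46 (adjusted p = 0.042). Mtor and Larp1 did not pass, at -0.04 (adjusted p = 0.93) and -0.35 (adjusted p = 0.108).

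The mitochondrial ribosome is a separate particle. Of 76 mitochondrial ribosomal protein genes 28 (36.8%) were lower in macrophages, against 15.1% of all genes, 1 (1.32%) was higher, against 12.4%, and 47 did not pass. The median was -0.36, against -0.07 over all genes. Mrpl57, Mrpl33, Mrpl30 and Mrpl20 fell by 1.65, 1.63, 1.42 and 1.40, and Mrpl3 was 0.65 higher (adjusted p = 0.0131). Between macrophage groups Mrps33 was lower in CCR2+ Mac than in MHC-IIlo Mac by -0.86 (adjusted p = 0.0436), and no other member of the list passed between those 2 groups. The lists were described by counts and medians only.

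**Figure D5:**
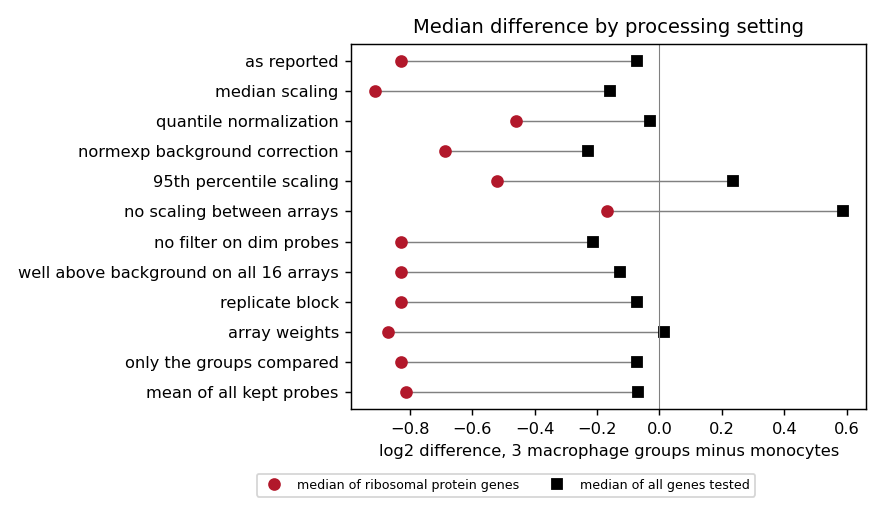
Median log2 difference between 3 macrophage groups and monocytes under each processing setting, for the ribosomal protein genes (circles) and all genes tested (squares), with a line joining the 2. The circle lies left of the square in every setting, from -0.91 under median scaling to -0.17 with no scaling between arrays. Scaling by a single factor per array cannot change the distance between circle and square.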

How the data were processed

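Gene expression of sorted mouse cells was measured on 16 Agilent single-colour arrays. The authors deposited scanner files made with Agilent Feature Extraction (version 11.5.1.1). The deposited intensity had its background subtracted and was detrended per the file headers, with no scaling between arrays. The authors' deposited value table holds log2 values, and each of its 16 columns matched the array of another sample (r at least 0.995), so it was not used for results. Partek is named without a version in the submitters' processing notes.

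Columns were located by content. Outlier spots were left out, spots of a probe averaged, each array divided by its 75th percentile, and the log2 values tested with limma 3.58.1 in R 4.3.3 (lmFit, eBayes, Benjamini-Hochberg over 21897 genes) in 1 fit of all groups with 12 residual degrees of freedom. Probes were kept if well above background on at least 4 of 16 arrays, and the brightest stood for a gene, with symbols updated through RefSeq. The fit was tested on simulated data. The number of arrays limits the precision.

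Replicate numbers coincide with slides in the file headers. All 24 pairs of same-numbered arrays correlated (0.14 to 0.64 after removing group means), against -0.54 to 0.49 for pairs with other numbers. Of the 16 arrays, 13 correlated best with an array of their own number. A fit with the slide as a block was therefore run. The labels state no pairing of samples, and pairing cannot be told apart from a shared slide. Position on the slide was fixed per group and cannot be told apart from it. Alternatives were other scalings, normexp, dim-probe filters, array weights, only the groups compared, the mean of probes and leaving out each array.

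The members and the gene lists were chosen with earlier results of these data known. Named genes are the P-stalk genes, Rpsa, paralogs and their parents, up to 12 per direction and comparison by size among those past an adjusted p of 0.05, the 3 largest where none passed, and up to 4 per list and direction. Some genes are not reported here.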

Additional observations from a re-analysis of the deposited data

Results flagged for a closer look

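Rps4y2 differed in its distance from monocytes between the macrophage groups. CCR2+ Mac lay below MHC-IIHi Mac by -1.33 and below MHC-IIlo Mac by -1.35 (log2, limma adjusted p = 0.00442 and 0.00182), and on all 4 slides in both cases.

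Single arrays stood apart from the other 3 of their group in 3 of 128 groups of 4 values examined, by the gap to the nearest array relative to the group's range. Chance alone marks about 1 group in 20. Rpl27 was 4.81 on CCR2+ Mac replicate 1, with the other arrays between 4.65 and 4.67. Rps14 was 6.09 on MHC-IIlo Mac replicate 3, with the others between 5.67 and 5.71. Rps27l was 3.26 on MHC-IIHi Mac replicate 1, with the others between 2.70 and 2.72.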

How the results depend on the processing

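The direction of the members' median against monocytes held under all 27 alternatives, of which 95th percentile scaling and no scaling were chosen after seeing the data. Some alternatives could not move these medians. The slide block and the fits of only the groups compared left them unchanged. For a single macrophage group, so did leaving out an array of another macrophage group. Medians in order CCR2+, MHC-IIHi, MHC-IIlo and all macrophages against monocytes were -0.41, -0.45, -0.51 and -0.46 after quantile normalization, -0.71, -0.66, -0.68 and -0.69 with normexp, -0.52, -0.47, -0.55 and -0.52 with 95th percentile scaling, and -0.0718, -0.20, -0.20 and -0.17 without scaling. The cause was not tested. Median scaling gave -0.88 in MHC-IIHi and -0.91 in all macrophages, and array weights -0.87 in MHC-IIHi. Members called, lower and higher together, were 34 in CCR2+ and 36 in MHC-IIHi after quantile normalization, and 7, 14, 13 and 20 without scaling. After quantile normalization 33 and 34 of these were lower, and 1 and 2 higher. Without scaling 3, 11, 10 and 16 were lower, and 4, 3, 3 and 4 higher. In CCR2+ more calls were therefore higher than lower without scaling. Of all genes 391, 723, 708 and 780 were lower in that setting, and 7314, 5036, 5511 and 7893 higher. Among macrophages, CCR2+ against MHC-IIHi had a median of 0.0848 without scaling and 0.0128 after quantile normalization, CCR2+ against MHC-IIlo 0.0804 after quantile normalization, 0.11 without scaling and 0.00736 with 95th percentile scaling, and MHC-IIHi against MHC-IIlo -0.0483 with array weights and -0.0126 without scaling. The sign of these 3 medians therefore depends on the setting.

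Leaving out 1 array gave 62 to 72 members called and medians of -0.94 to -0.82 for CCR2+ against monocytes, 54 to 70 and -0.84 to -0.69 for MHC-IIHi, 60 to 69 and -0.88 to -0.75 for MHC-IIlo, and 71 to 77 and -0.88 to -0.77 for all macrophages. These counts include 1 higher member in each comparison except that of CCR2+, where all were lower. Among macrophages the counts stayed at 1, 1 and 0, with medians of -0.21 to -0.02, -0.12 to 0.03 and -0.04 to 0.12. Without scaling Rplp1, Rps27l and Rps4x reversed to 0.0734, 0.000509 and 0.10 in all macrophages, and Rps27l to 0.11 in CCR2+ Mac. The adjusted p of Rps27l in CCR2+ Mac rose to 0.0544 without CCR2+ replicate 2, 0.0506 without monocyte replicate 2 and 0.0525 without monocyte replicate 3, and that of Rpl7 in MHC-IIHi Mac to 0.0572, 0.0574 and 0.0506 without MHC-IIHi replicate 2 or 4 or monocyte replicate 1. With the mean of all probes Rpl22 did not pass in CCR2+ or MHC-IIHi Mac. Named genes gave 2206 of 2295 values with unchanged direction and side of the threshold. With the slide as a replicate block, 77, 76, 77 and 78 members were lower in CCR2+, MHC-IIHi, MHC-IIlo and all macrophages against monocytes. In each of these 1 member was higher, and 19.7%, 18.1%, 18.3% and 21.9% of all genes were lower. Among macrophages 1, 1 and 0 members were called with the block. The block ended no call of a named member.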
